A study of Mus musculus with 12 samples.

Results

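The p38 MAPK cascade was followed through 10 genes: the MAP3Ks Zak (named Map3k20 in current annotation) and Map3k5, the MAP2Ks Map2k3 and Map2k6, the p38 kinases Mapk14, Mapk11, Mapk12 and Mapk13, and the p38-activated kinases Mapkapk2 and Mapkapk3. They were taken by gene name from a table of 34745 mouse genes, and all 10 were found. RNA had been sequenced from MLE-12 cells, an established mouse line used as a model of alveolar type II (AT II) cells, in 4 groups of 3 libraries. The LPS group received 100 ng/mL lipopolysaccharide in 21% oxygen, and the LPS + M2-Exo group received 10 µg/mL M2-Exo after the same LPS. The Hyp group was kept in 85% oxygen without LPS, and the Hyp + M2-Exo group received the same dose of M2-Exo after the same hyperoxia. M2-Exo are exosomes of MH-S cells, a mouse alveolar macrophage line, that had been treated with IL-4. The labels give 24 h for all 12 libraries. Each comparison set treated cells against other treated cells, since no library of untreated cells was analysed here. The sources do not say whether the libraries of a group came from separate cultures, so the p-values measure only the spread between these libraries, which may be technical.

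In this cascade a MAP3K phosphorylates a MAP2K, the MAP2K phosphorylates a p38 kinase, and p38 then activates further kinases that act on transcription factors and on mRNA stability. ZAKα, one of the proteins encoded by Zak, binds ribosomes and starts the cascade when ribosomes stall or collide, whereas the protein of Map3k5, ASK1, responds to oxidative stress. In airway and alveolar epithelium p38 is known for its part in inflammatory and stress responses. The cascade is switched by phosphorylation, which RNA levels do not measure, and counts per gene do not separate the ZAKα and ZAKβ isoforms. The question addressed was whether the transcripts of the cascade differed with M2-Exo in either injury model, and between the models.

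Zak and Mapk14 are the genes the study's pathway is named for, and Map2k3 and Map2k6 are paralogous MAP2Ks that differed in opposite directions between LPS and Hyp. The 250 bases before the start site of these 4 genes are shown for that reason (RefSeq, GRCm38.p6, plus strand, 5′ to 3′), with motif matches in capitals.
Zak, chr2:72285387-72285636: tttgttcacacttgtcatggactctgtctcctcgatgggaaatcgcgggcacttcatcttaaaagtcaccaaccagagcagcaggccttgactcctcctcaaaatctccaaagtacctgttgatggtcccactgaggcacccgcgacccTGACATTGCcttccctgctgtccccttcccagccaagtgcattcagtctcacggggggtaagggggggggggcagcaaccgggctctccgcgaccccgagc
Mapk14, chr17:28691092-28691341: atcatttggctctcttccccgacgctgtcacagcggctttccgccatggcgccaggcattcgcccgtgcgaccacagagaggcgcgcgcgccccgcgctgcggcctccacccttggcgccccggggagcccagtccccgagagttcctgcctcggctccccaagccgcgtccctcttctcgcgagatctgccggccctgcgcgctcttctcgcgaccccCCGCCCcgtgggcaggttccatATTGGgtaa
Map2k3, chr11:60931804-60932053: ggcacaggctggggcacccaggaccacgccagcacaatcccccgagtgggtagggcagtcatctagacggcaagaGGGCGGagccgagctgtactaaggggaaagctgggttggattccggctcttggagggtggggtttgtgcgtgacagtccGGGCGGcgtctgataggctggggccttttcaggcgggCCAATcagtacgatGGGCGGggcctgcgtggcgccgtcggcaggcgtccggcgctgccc
Map2k6, chr11:110398852-110399101: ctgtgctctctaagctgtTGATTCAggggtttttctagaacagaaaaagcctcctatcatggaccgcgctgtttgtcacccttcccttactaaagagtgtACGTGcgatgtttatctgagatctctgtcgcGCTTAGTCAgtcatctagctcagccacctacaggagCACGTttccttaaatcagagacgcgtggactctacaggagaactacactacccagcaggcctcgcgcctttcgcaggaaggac
The search covered both strands. Its letters were TATAAA for the TATA box, CCAAT for the CCAAT box, GGGCGG for the GC box, TGANTCA for an AP-1 site, TGACGTCA for the cAMP response element, TGACNNNGC for the core of the antioxidant response element and ACGTG for the core of the hypoxia response element. The AP-1 and hypoxia letters can each fall within an antioxidant match. Map2k6 has 3 RefSeq starts, Zak and Mapk14 have 2 each and Map2k3 has 1, and the start nearest the deposited one was used. The RefSeq start lies 21 bases from the start in the deposited table for Map2k3 and 20 bases for Map2k6, and 0 bases for Zak and Mapk14. For Map2k6 alone of the 4, the run of bases just after that start was not found in a GENCODE transcript of the gene. The Map2k6 window held 1 AP-1 match, 1 antioxidant core and 2 hypoxia cores. The Map2k3 window held 1 CCAAT box and 3 GC boxes, and shared no kind of match with that of Map2k6. The Mapk14 window held 1 CCAAT box and 1 GC box, and the Zak window 1 antioxidant core. Of 32851 promoter windows of the same length, 33.8% held CCAAT, 32.7% a GC box, 16.6% a hypoxia core, 10.2% an antioxidant core and 6.75% an AP-1 match. A match describes letters in the window and not a bound site.

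By position in the deposited table (GRCm38), Zak spans chromosome 2 from 72285637 to 72442610 on the plus strand and Map3k5 chromosome 10 from 19934472 to 20142753. Map2k3 lies on chromosome 11 at 60932033 to 60952811 and Map2k6 on the same chromosome at 110399122 to 110525522. Mapk14 (chromosome 17, 28691342 to 28748404) and Mapk13 (28769307 to 28778698) are neighbours on the plus strand, 20902 bases apart. Mapk11 (chromosome 15, 89142486 to 89149606) and Mapk12 (89130585 to 89140703) are neighbours on the minus strand, 1782 bases apart. Mapkapk2 lies on chromosome 1 at 131053700 to 131097826 and Mapkapk3 on chromosome 9 at 107254927 to 107289877, both on the minus strand. All 10 are annotated as protein coding, and Zak has 6 annotated transcripts, 3 of them protein coding. Few stretches were shared with other genes. Of all 75-base stretches of the transcripts, 1.43% in Mapk12 and 0.149% in Zak also occurred in another gene, and 0 in the other 8. Zakit, which overlaps Zak, had 0 or 1 count per library, and Gm37084, which overlaps Mapkapk2, had 2 to 20.

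Total counts over all genes were 16021833 to 24074616 per library, higher in the Hyp groups (20231632 to 24074616) than in the LPS groups (16021833 to 19185116). Levels of a gene are given as CPM, counts set relative to the library's total after TMM scaling, and different genes are compared with each other only by the deposited FPKM, which divide by gene length. The AT II label was checked against its markers. Of 10 AT II markers, 6 exceeded 1 CPM in all 3 libraries of each LPS group and 5 in those of each Hyp group. Of 6 general epithelial markers, 3 did so in every group. Sftpc was at 21.5 to 23.4 CPM in the LPS groups and 10.5 to 13.9 in the Hyp groups. Sftpa1, Sftpd and the epithelial marker Cldn7 were at or near 0, and Epcam did not exceed 1.17 CPM. In bulk libraries, fewer cells of a type and less RNA per cell cannot be told apart.

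All members but Mapk13 passed the filter on low counts. Mapkapk2, which encodes the kinase MK2, had the highest FPKM of the cascade in all 12 libraries (46.6 to 77.1), and Zak was among the evenest, at 10.3 to 12.0 FPKM. Mapk11 (8.51 to 14.4 FPKM) and Mapk12 (5.48 to 11.7) encode p38β and p38γ. Mapk14, which encodes p38α, ranged from 8.47 to 29.3 FPKM. In the LPS group the order by mean FPKM was Mapkapk2, Mapk11, Mapk14, Zak, Mapk12, Map2k3, Map3k5, Map2k6, Mapkapk3 and Mapk13, and the libraries of Mapk14 overlapped with those of Zak and Mapk12. In the Hyp group the order was Mapkapk2, Mapk14, Map2k3, Zak, Mapk11, Mapk12, Map3k5, Mapkapk3, Map2k6 and Mapk13, where the libraries of Mapk14 overlapped with those of Map2k3, Zak and Mapk11, and those of Zak with Mapk11. Mapk13, which encodes p38δ, had 0 to 4 counts in each library, too few for a test. In libraries with 0 counts of Mapk13 the depth leaves room for 3 counts.

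M2-Exo was not followed by a called difference in any cascade gene in either model. With edgeR's quasi-likelihood test and a Benjamini-Hochberg adjusted p under 0.05, 0 of the 9 tested members were called in LPS + M2-Exo against LPS, where 0.187% of 13353 genes were called (0.0524% higher and 0.135% lower). Likewise 0 of 9 were called in Hyp + M2-Exo against Hyp, where 0.101% of 13815 genes were called (0.0507% higher and 0.0507% lower). At an unadjusted p under 0.05 there was 1 member in the LPS model (Mapk14), against 11.1% of all genes, and 0 in the Hyp model, against 8.48%. DESeq2 also called 0 members in both models. The median log2 difference of the 9 members was -0.019 in the LPS model and -0.032 in the Hyp model, beside 0.0027 and -0.0021 over all genes tested. For no member were the libraries with M2-Exo all above or all below those without it, a separation seen in 17.2% of genes in the LPS model and 16% in the Hyp model. The 2 models shared no library in these tests.

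**Figure D1:**
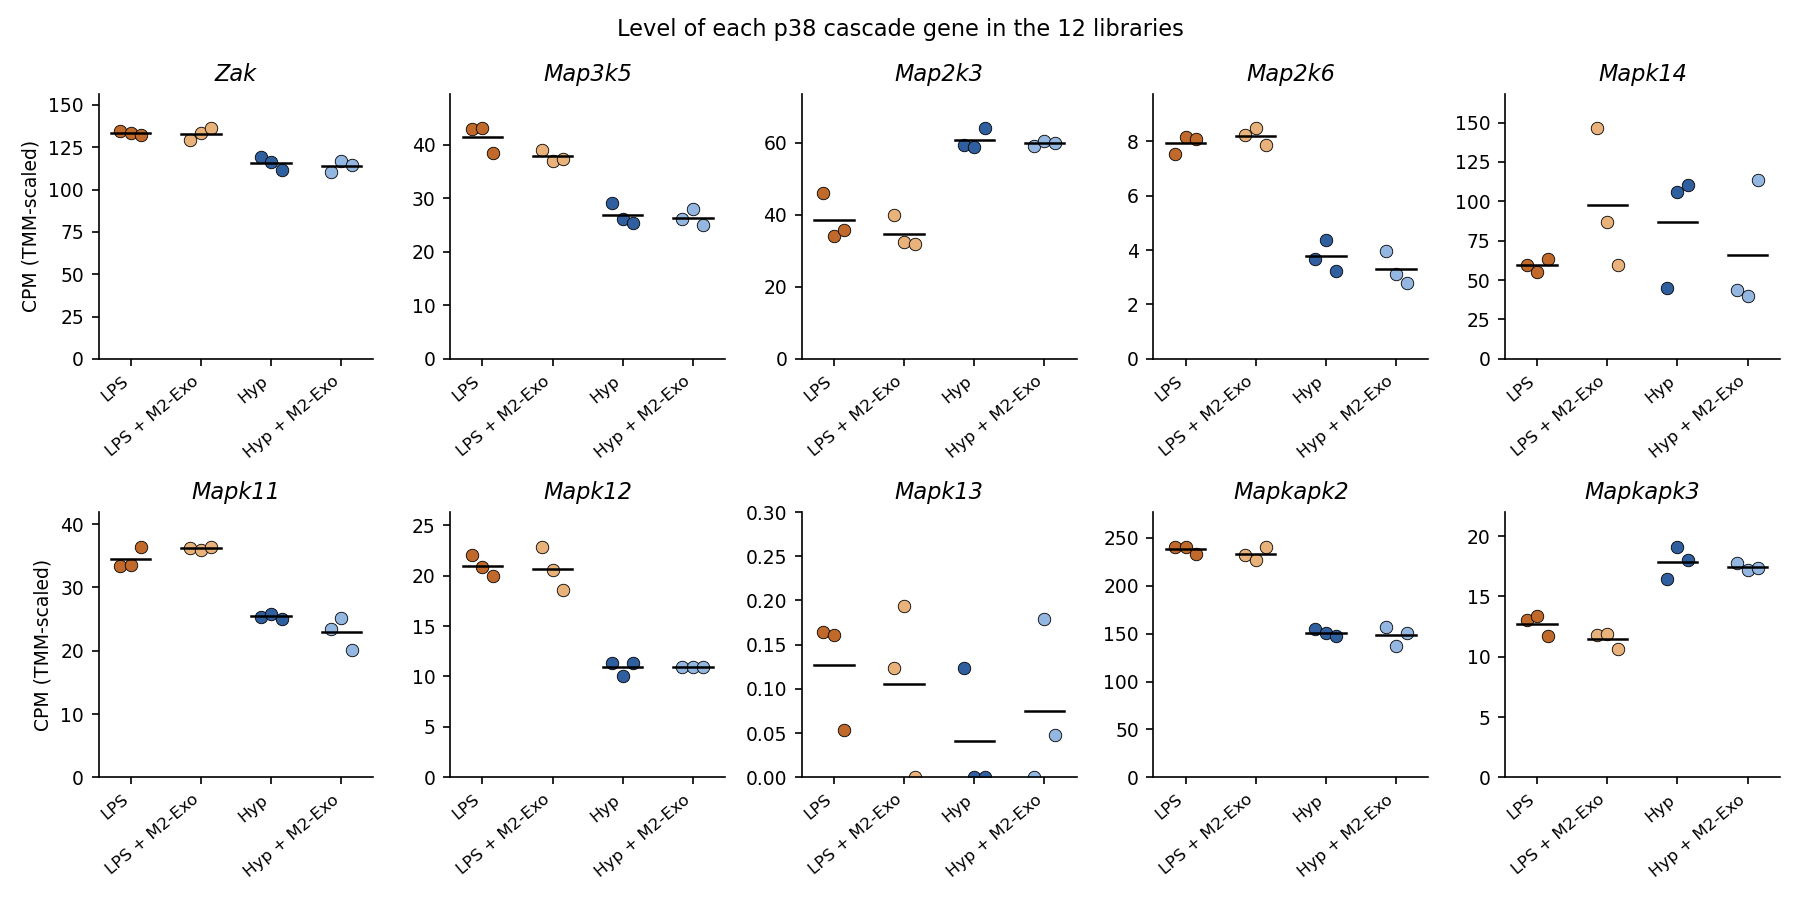
Level of the 10 p38 cascade genes in each of the 12 libraries, in TMM-scaled CPM on axes that start at 0; points are libraries and bars are the means of 3. Zak stayed between 110.3 and 136 CPM, and Mapk14 varied within groups from 39.8 to 146 CPM. The LPS groups and the Hyp groups did not overlap for 8 genes. Of all genes tested, 78.8% did not overlap between the models without M2-Exo and 77% with it.

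Zak had the most even transcript of the cascade. Its CPM were 135, 133 and 132 in LPS, 129, 133 and 136 in LPS + M2-Exo, 119, 116 and 111 in Hyp, and 110.3, 117 and 114 in Hyp + M2-Exo. The libraries with and without M2-Exo overlapped in both models, and every LPS-treated library lay above every hyperoxia library. The log2 difference with M2-Exo was -0.0056 ± 0.0357 (SE) in the LPS model (adjusted p = 0.976 by edgeR), or -0.387% with a 95% interval of -5.93 to 5.49%. In the Hyp model it was -0.026 ± 0.0421 (adjusted p = 0.864), or -1.80% with an interval of -8.21 to 5.06%. After group means were removed, the SD of Zak between libraries was 0.0381 on the log2 scale, larger than that of only 5.40% of 14187 genes (median 0.105). From high to low the mean CPM was 133 in LPS, 133 in LPS + M2-Exo, 115 in Hyp and 114 in Hyp + M2-Exo. The first pair overlapped, as did the last pair.

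Map3k5, whose protein ASK1 is held inactive by reduced thioredoxin, was lower in level than Zak and varied more. Its CPM were 42.9, 43.1 and 38.5 in LPS and 39.1, 37.0 and 37.4 in LPS + M2-Exo. The Hyp libraries had 29.2, 26.0 and 25.4 and the Hyp + M2-Exo libraries 26.2, 28.1 and 25.0. The groups with and without M2-Exo overlapped in both models. Its log2 difference with M2-Exo was -0.14 ± 0.0630 in the LPS model (unadjusted p = 0.0649, adjusted p = 0.484 by edgeR) and -0.031 ± 0.0765 in the Hyp model (adjusted p = 0.914 by edgeR).

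Map2k3 and Map2k6 encode MKK3 and MKK6, the MAP2Ks dedicated to p38. Map2k3 had 46.1, 34.0 and 35.9 CPM in LPS and 39.9, 32.5 and 32.0 in LPS + M2-Exo. It had 59.4, 58.9 and 64.1 in Hyp and 59.1, 60.6 and 59.96 in Hyp + M2-Exo. Map2k6 showed the reverse order between models, with 7.53, 8.17 and 8.09 CPM in LPS, 8.24, 8.48 and 7.87 in LPS + M2-Exo, 3.68, 4.39 and 3.25 in Hyp, and 3.96, 3.13 and 2.78 in Hyp + M2-Exo. Libraries with and without M2-Exo overlapped for both genes in both models. With M2-Exo the log2 difference of Map2k3 was -0.15 ± 0.132 in the LPS model and -0.028 ± 0.0511 in the Hyp model. That of Map2k6 was 0.047 ± 0.0939 and -0.20 ± 0.182, and all 4 adjusted p-values by edgeR lay between 0.734 and 0.905. With 1 library left out, Map2k3 in the LPS model ranged from -0.26 to -0.010 and Map2k6 in the Hyp model from -0.35 to -0.075, and neither was called.

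Mapk14 was the member whose libraries disagreed most within a group. The sources used here do not say how reads were assigned to genes, and the part of that step in this spread was not tested. Its counts were 1084, 1027 and 1177 in LPS, 2363, 1341 and 1065 in LPS + M2-Exo, 1086, 2414 and 2759 in Hyp, and 1055, 891 and 2373 in Hyp + M2-Exo. In CPM the 3 LPS libraries lay close together (59.6, 55.2 and 63.5), and LPS + M2-Exo replicate 1 stood highest of all at 146, with replicates 2 and 3 at 86.8 and 59.5. In hyperoxia, Hyp replicates 2 and 3 (106 and 111 CPM) and Hyp + M2-Exo replicate 3 (114) were high, and Hyp replicate 1 (44.9) and Hyp + M2-Exo replicates 1 and 2 (44.0 and 39.8) were low. All 4 groups overlapped with their neighbours in the order of means. The highest library of a group was 2.46 times the lowest in LPS + M2-Exo, 2.46 times in Hyp and 2.86 times in Hyp + M2-Exo, and that ratio was lowest in LPS. The SD within groups, 0.642 on the log2 scale, was larger than that of 99.2% of 14187 genes. Among genes with a mean of at least 20 CPM, 0.787% to 1.18% spanned at least 1 log2 unit within a group.

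The log2 difference of Mapk14 with M2-Exo was 0.71 ± 0.279 in the LPS model (unadjusted p = 0.0343, adjusted p = 0.407 by edgeR) and -0.41 ± 0.458 in the Hyp model (adjusted p = 0.797). The 95% intervals were 0.068 to 1.36 and -1.47 to 0.65, and the latter included changes of more than 1.5-fold in either direction. Without LPS + M2-Exo replicate 1 the first value was 0.30, and without Hyp + M2-Exo replicate 3 the second was -1.06, and neither was called. Over the 6 fits that each left out a library, the value in Hyp ranged from -1.06 to -0.15 and that in LPS from 0.30 to 0.97. The difference between the 2 effects, tested as an interaction over all 12 libraries, was -1.12 ± 0.615 (unadjusted p = 0.0931, adjusted p = 0.586 by edgeR). No member passed that test, in which 0.0352% of 14187 genes were called (0.0141% higher and 0.0211% lower), or at an unadjusted p under 0.05 (9.78% of genes). The interaction of Zak was -0.015 ± 0.0527 (adjusted p = 0.951 by edgeR).

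The other p38 kinases held steadier levels than Mapk14. Mapk11 had 33.3, 33.5 and 36.4 CPM in LPS, 36.3, 35.9 and 36.4 in LPS + M2-Exo, 25.3, 25.9 and 25.1 in Hyp, and 23.5, 25.2 and 20.1 in Hyp + M2-Exo. Mapk12 had 22.03, 20.8 and 20.002 in LPS and 22.9, 20.6 and 18.6 in LPS + M2-Exo, against 11.4, 10.0 and 11.3 in Hyp and 10.9 in each of the 3 Hyp + M2-Exo libraries. For both genes the LPS-treated libraries lay above all hyperoxia libraries and the M2-Exo groups overlapped with their controls. The log2 difference with M2-Exo was 0.071 ± 0.0576 for Mapk11 in the LPS model and -0.15 ± 0.0863 in the Hyp model, where its adjusted p of 0.622 by edgeR was the smallest of the members. For Mapk12 it was -0.019 ± 0.0903 and -0.0047 ± 0.0823. In the interaction Mapk11 had the smallest unadjusted p of the members (-0.22 ± 0.105, unadjusted p = 0.0605, adjusted p = 0.538 by edgeR). The summed FPKM of the 4 p38 genes was 35.3 to 37.4 in LPS, 35.8 to 55.5 in LPS + M2-Exo, 26.5 to 40.5 in Hyp and 25.1 to 38.7 in Hyp + M2-Exo. Mapk14 made up 31.5% to 33.9% of it in LPS, 33.2% to 52.8% in LPS + M2-Exo, 36.0% to 58.4% in Hyp and 33.7% to 62.6% in Hyp + M2-Exo, and it was the leading p38 transcript in 5 libraries. The 3 lower hyperoxia libraries of Mapk14 were led by Mapk11, at 39.3% to 42.4% of the sum.

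**Figure D2:**
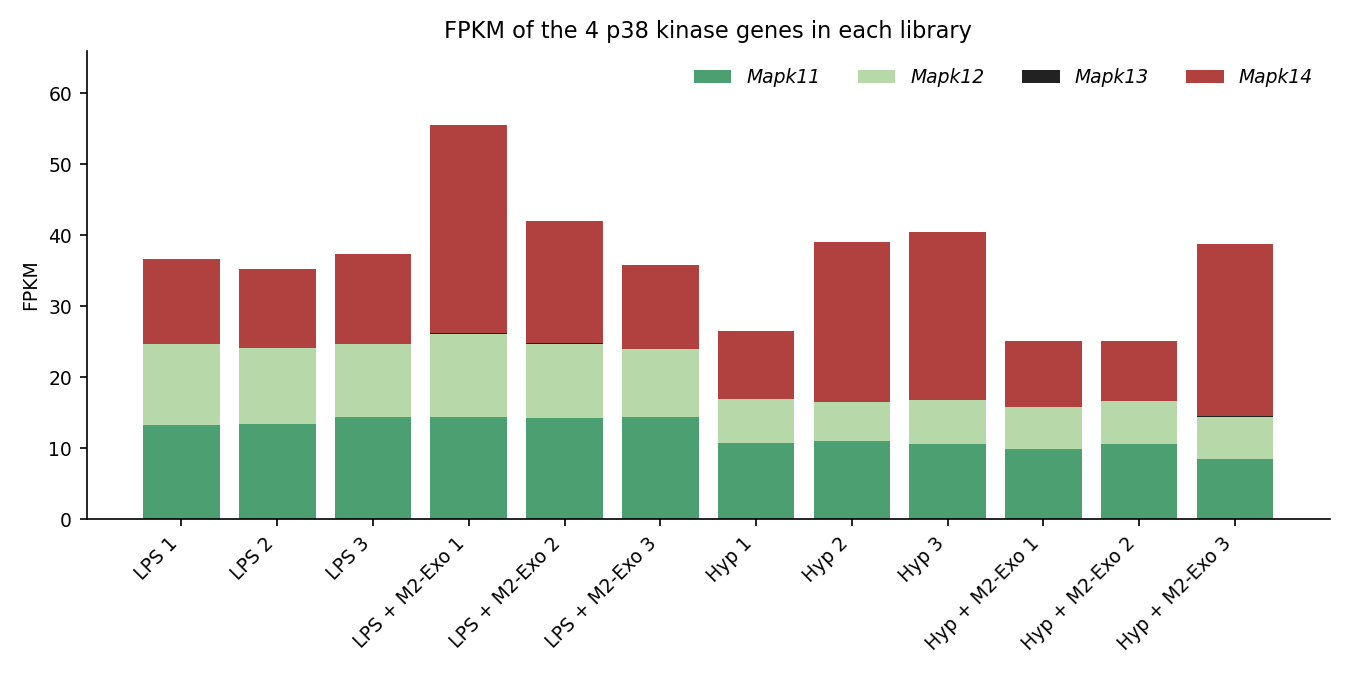
FPKM of Mapk11, Mapk12, Mapk13 and Mapk14 in each of the 12 libraries, stacked, with replicate numbers on the horizontal axis. Mapk14 made up from 31.5% to 62.6% of the sum, and the libraries with the most Mapk14 fell in 3 different groups.

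Mapkapk2 and Mapkapk3, which encode the p38-activated kinases MK2 and MK3, did not differ with M2-Exo beyond the spread of the libraries. Mapkapk2 had 240.0, 241 and 233 CPM in LPS, 232, 227 and 241 in LPS + M2-Exo, 155, 151 and 147 in Hyp, and 157, 137 and 150.4 in Hyp + M2-Exo. Its log2 difference with M2-Exo was -0.029 ± 0.0348 in the LPS model, with an interval of -7.28 to 3.67%, and -0.032 ± 0.0512 in the Hyp model, with an interval of -9.91 to 6.15%. Mapkapk3 had 13.1, 13.4 and 11.7 CPM in LPS and 11.8, 11.9 and 10.6 in LPS + M2-Exo. In hyperoxia it had 16.4, 19.1 and 18.0 without M2-Exo and 17.8, 17.2 and 17.4 with it. Its log2 difference with M2-Exo was -0.15 ± 0.0942 in the LPS model (adjusted p = 0.611 by edgeR) and -0.038 ± 0.0754 in the Hyp model (adjusted p = 0.891 by edgeR). The groups with and without M2-Exo overlapped for both genes.

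**Figure D3:**
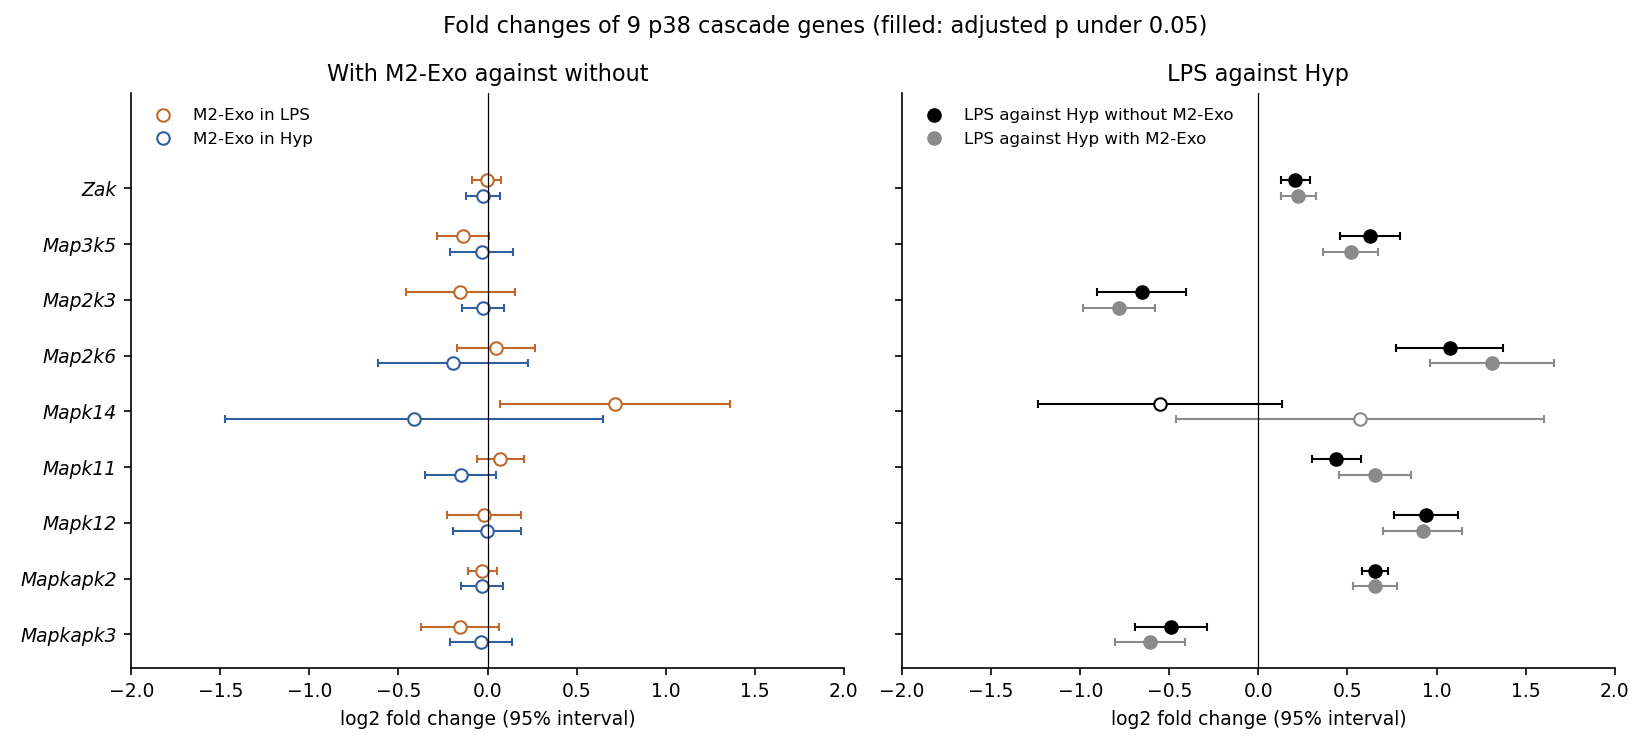
Log2 fold changes of the 9 tested members with 95% intervals, for M2-Exo in each model (left) and for LPS against Hyp without and with M2-Exo (right); filled points have an adjusted p under 0.05. All 18 points on the left are open, and 8 of 9 in each comparison on the right are filled, with Mapk14 the exception. Of all genes tested, 0.187% (LPS model) and 0.101% (Hyp model) were called on the left. On the right 75.8% were called without M2-Exo and 73.7% with it.

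Between the injury models most of the cascade differed. Without M2-Exo, 6 members were higher in LPS than in Hyp and 2 were lower (edgeR, adjusted p under 0.05), and with M2-Exo the counts were again 6 and 2. The background to these counts was all genes tested, of which 75.8% of 13805 were called without M2-Exo (37.8% higher and 38% lower) and 73.7% of 13660 with it (36.5% higher and 37.1% lower). The models differed in LPS, in oxygen and in total counts, and in any preparation that the labels do not give, and these cannot be told apart. The tests used the same 12 libraries as those of M2-Exo. The members' median log2 difference was 0.44 without and 0.57 with M2-Exo, beside -0.0091 and -0.0083 over all genes. For 8 members the libraries did not overlap in either comparison, as for 78.8% and 77% of all genes.

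Members higher in LPS were found at each level of the cascade. The lower members were a MAP2K and a p38-activated kinase, so these levels went both ways. Map2k6 was 2.11-fold higher in LPS than in Hyp (95% interval 1.71 to 2.59, adjusted p = 1.14e-04 by edgeR), and with M2-Exo in both groups 2.48-fold. Mapk12 was 1.92-fold higher (1.69 to 2.18), Mapkapk2 1.58-fold (1.499 to 1.66), Map3k5 1.54-fold (1.37 to 1.74) and Mapk11 1.35-fold (1.23 to 1.49). With M2-Exo these 4 were 1.89-fold, 1.57-fold, 1.43-fold and 1.58-fold higher. Zak showed the smallest called difference, 15.5% higher in LPS (9.14 to 22.2%, adjusted p = 8.20e-04 by edgeR) and 16.8% with M2-Exo. On the log2 scale Zak's 0.21 became 0.12 when libraries were scaled by total counts alone and 0.11 on log2(FPKM + 1), and it was still called under both. The lower members were Map2k3, at 0.635 times its Hyp level (0.534 to 0.756) and 0.581 times with M2-Exo, and Mapkapk3, at 0.712 times (0.620 to 0.818) and 0.656 times with M2-Exo. For these 8 members leaving out any 1 library kept the direction and the call.

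Mapk14 was not called in either comparison of the models, and its direction differed between them. It was -0.55 ± 0.296 on the log2 scale without M2-Exo (adjusted p = 0.123 by edgeR) and 0.57 ± 0.448 with M2-Exo (adjusted p = 0.278). Single libraries decided these values. Without Hyp replicate 1 the first was -0.87 and was called (adjusted p = 2.64e-05 by edgeR), and without Hyp + M2-Exo replicate 3 the second was 1.21 and was called (adjusted p = 0.0148 by edgeR).

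The proportions of the paralogs put the same differences between the models in another form. The FPKM of Map2k3 was 2.79 to 4.46 times that of Map2k6 in the 6 LPS-treated libraries and 9.79 to 15.7 times in the 6 hyperoxia libraries. The FPKM of Mapkapk2 was 51.4 to 64.9 times that of Mapkapk3 in the LPS-treated libraries and 22.6 to 26.9 times in the hyperoxia libraries. Neither ratio overlapped between the models. This follows from the genes of each pair, which separated the models in opposite directions, and is no further result. Both ratios overlapped between groups with and without M2-Exo.

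Markers of several cell types also differed between the models. The summed level of 11 macrophage markers was 361 to 403 CPM in LPS, 284 to 323 in LPS + M2-Exo, 84.4 to 91.9 in Hyp and 67.1 to 100.04 in Hyp + M2-Exo, and did not overlap between LPS and LPS + M2-Exo. The pan-leukocyte marker Ptprc was at 45.7 to 53.6 CPM in LPS and 8.07 to 10.1 in Hyp, the macrophage receptor Csf1r at 101 to 111 and 17.7 to 21.9, and Chil3 was at 0 in all libraries. The 10 AT II markers summed to 428 to 445 CPM in the LPS groups and 241 to 263 in the Hyp groups, with the lung transcription factor Nkx2-1 at 171 to 187 and 35.2 to 42.4. The 6 epithelial markers summed to 656 to 737 and 804 to 928 CPM. The 6 fibroblast markers, led by Dcn, summed to 769 to 836 and 329 to 359, and the 5 endothelial markers, led by Tek in LPS, to 22.6 to 26.9 and 5.73 to 8.05. Of these 5, only 1 exceeded 1 CPM in all 3 libraries of each LPS group, and 2 in those of each Hyp group. The epithelial sums (656 to 696 CPM in LPS, 706 to 737 in LPS + M2-Exo) also did not overlap between LPS and LPS + M2-Exo. The same held for the fibroblast sums (812 to 836 and 769 to 791). Of all single genes tested, 17.2% did not overlap in that comparison. The part of all these markers in the differences of the cascade was not tested.

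The wider pathway was described by 99 genes in 6 lists. With M2-Exo 0 of the 95 tested were called in the LPS model and 0 of 93 in the Hyp model (edgeR, adjusted p under 0.05). At an unadjusted p under 0.05 there were 12 and 6, against 11.1% and 8.48% of all genes. The interaction called 0 of 95, with 12 at an unadjusted p under 0.05 beside 9.78% of all genes. The smallest adjusted p of a pathway gene by edgeR was 0.226 in the LPS model, 0.544 in the Hyp model and 0.314 in the interaction. Without Hyp + M2-Exo replicate 1, 1 upstream activator was called in the Hyp model. Between LPS and Hyp without M2-Exo 73 of 95 were called, 32 higher and 41 lower in LPS, against 75.8% of all genes. With M2-Exo 74 of 95 were called, 34 higher and 40 lower, against 73.7%.

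**Figure D4:**
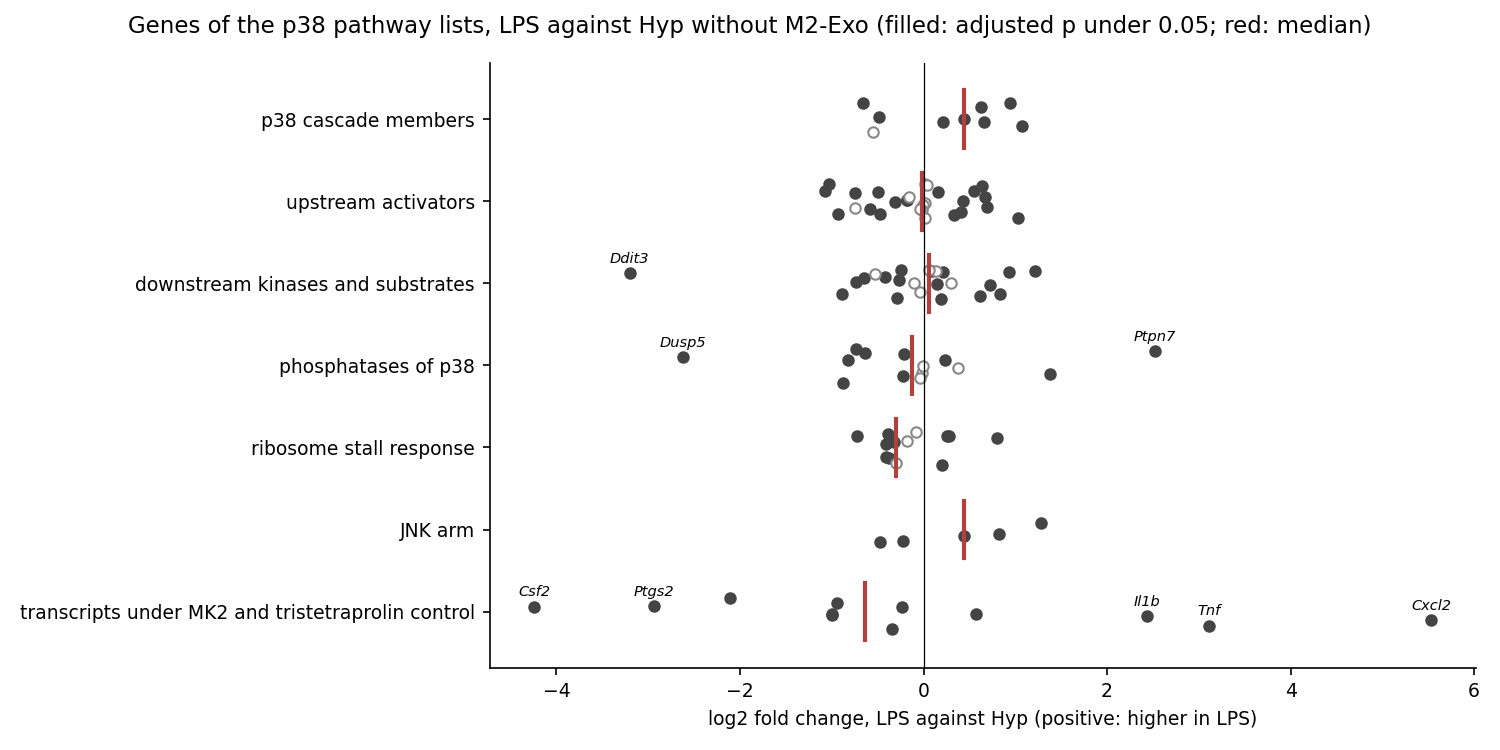
Log2 fold change of LPS against Hyp without M2-Exo for the tested genes of the cascade and of 6 pathway lists; filled points have an adjusted p under 0.05 and red bars mark medians. Genes past 2.2 in either direction are named, from Csf2 at -4.24 to Cxcl2 at 5.53.

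In each list the counts stood beside 37.8% of all genes higher and 38% lower in LPS than in Hyp, and nothing particular to a list is read from them. Of 28 upstream activators 9 were higher and 10 lower, against 75.8% of all genes called in either direction. Map3k1, which encodes the MAP3K MEKK1, was at 115 to 118 CPM in LPS and 55.0 to 58.9 in Hyp (log2 difference 1.03 ± 0.0401), and Map3k4, which encodes MEKK4, at 45.3 to 48.3 and 27.01 to 30.7 (0.69 ± 0.0631). Gadd45a and Gadd45b, stress-induced partners of MEKK4, were lower in LPS, at -0.93 ± 0.103 and -1.03 ± 0.0427. Map3k6, which encodes the ASK1 relative ASK2, was also lower (-1.07 ± 0.101). Map3k7, which encodes TAK1, the MAP3K of Toll-like receptor signalling, varied within groups as Mapk14 did, at 51.8 to 134 CPM in LPS and 97.6 to 173 in Hyp, and was not called (-0.75 ± 0.345, adjusted p = 0.0801 by edgeR). Tab1, which encodes a TAK1 and p38α binding protein (0.021 ± 0.0613), and Map2k4, which encodes MKK4 of the JNK and p38 arms (0.020 ± 0.0410), were not called.

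Of 23 downstream kinases and substrates 9 were higher and 8 lower in LPS than in Hyp, against 75.8% of all genes called. Ddit3, which encodes the stress factor CHOP, was at 11.1 to 12.5 CPM in LPS and 106 to 109 in Hyp (-3.20 ± 0.0571). Zfp36, which encodes tristetraprolin, a protein that marks AU-rich mRNAs for decay and is phosphorylated by MK2, was lower (-0.89 ± 0.0748), and its relatives Zfp36l1 (0.93 ± 0.0773) and Zfp36l2 (0.83 ± 0.0399) were higher. Hnrnpa0, which encodes another MK2 substrate, was at 347 to 362 CPM in LPS and 149.5 to 157 in Hyp (1.21 ± 0.0344). Mapkapk5, which encodes the kinase MK5, was lower (-0.74 ± 0.112), as were Atf2 (-0.27 ± 0.0370), a p38 target transcription factor, and Hspb1 (-0.24 ± 0.0456), the small heat shock protein phosphorylated by MK2. The kinase genes Rps6ka5 (MSK1, 0.19 ± 0.0682) and Mknk2 (MNK2, 0.091 ± 0.0337) were slightly higher. Scaling by library size alone moved the median of all genes from -0.0091 to -0.099, so differences this small depend on the scaling.

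Of 14 tested genes in the list of p38 phosphatases 3 were higher and 7 lower in LPS than in Hyp, against 75.8% of all genes called. Dusp1, which encodes the nuclear MAPK phosphatase MKP-1, was at 75.7 to 81.1 CPM in LPS and 27.6 to 32.9 in Hyp (1.38 ± 0.0716). Ptpn7, a tyrosine phosphatase known from blood cells, was at 17.4 to 22.6 and 2.81 to 4.33 CPM (2.52 ± 0.175). The summed macrophage, AT II, fibroblast and endothelial markers were also higher in LPS and the epithelial sum lower. Any link of Ptpn7 to these markers was not tested. Dusp5, counted among the 7, was at 1.59 to 2.21 and 10.5 to 12.4 CPM (-2.62 ± 0.141), and its protein is known to act on ERK rather than p38. Dusp4 (-0.82 ± 0.0403), Ppm1d, which encodes the p53-induced phosphatase WIP1 (-0.74 ± 0.0491), and Dusp16 (-0.22 ± 0.0394) were lower, and Dusp10, which encodes MKP-5, was not called (-0.013 ± 0.0484, adjusted p = 0.823 by edgeR).

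Of 13 genes of the response to stalled ribosomes, in which ZAKα takes part, 4 were higher and 6 lower in LPS than in Hyp, against 75.8% of all genes called. Gnb2l1, which encodes the ribosomal protein RACK1, was at 915 to 993 CPM in LPS and 521 to 583 in Hyp (0.80 ± 0.0503). Hbs1l, which encodes a ribosome rescue factor, was lower (-0.73 ± 0.0491), as were Ascc3, a helicase that splits collided ribosomes (-0.41 ± 0.0350), and Gcn1l1, which encodes the collision sensor GCN1 (-0.41 ± 0.0470). Edf1, another factor of collided ribosomes, was not called (-0.18 ± 0.105, adjusted p = 0.148 by edgeR). Of the 5 tested genes of the JNK arm, which ZAK also feeds, 3 were higher and 2 lower in LPS, against 75.8% of all genes called. The higher genes were Mapk8ip1 (1.28 ± 0.0682), Mapk9 (0.82 ± 0.0460) and Map2k7 (0.44 ± 0.0410). Mapk8, which encodes JNK1, was lower (-0.47 ± 0.0519), as was Mapk8ip3 (-0.22 ± 0.0795). The call of Mapk8ip3 was lost in 3 of 6 fits that left out a library.

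All 12 transcripts known to be held under MK2 and tristetraprolin control differed between LPS and Hyp, 4 higher and 8 lower, in a comparison that called 75.8% of all genes. The cytokine gene Tnf was at 11.6 to 14.2 CPM in LPS and 1.24 to 1.75 in Hyp (3.11 ± 0.146), and Il1b at 1.54 to 2.26 and 0.289 to 0.441 (2.44 ± 0.275). The chemokine gene Cxcl2 had 112 to 133 counts per library in LPS and 0 to 8 in Hyp, so its fitted log2 difference of 5.53 ± 0.430 depends on the prior count. On the other side, Ptgs2, which encodes the prostaglandin synthase COX-2, was at 33.9 to 38.5 CPM in LPS and 275 to 279 in Hyp (-2.94 ± 0.0499). Csf2, which encodes GM-CSF, was at 0.376 to 0.647 and 10.0 to 10.7 CPM (-4.24 ± 0.163), and Plaur, the urokinase receptor, was also lower in LPS (-2.11 ± 0.0936). The list's median was -0.64, beside -0.0091 over all genes tested.

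The genes whose levels moved most like Zak and Mapk14 over the 12 libraries were named as a description. They were taken from 9326 genes by Pearson's r of log2 CPM, and these points share libraries, groups and depth. For Zak they were Mbnl1 (r = 0.983, Spearman's rho = 0.937), Celf2 (r = 0.983, rho = 0.902) and Ppp2r3a (r = 0.981, rho = 0.958). The first pair encode RNA-binding proteins that act on splicing. All 3 were higher in the LPS groups than in the Hyp groups without overlap, Mbnl1 at 150.02 to 176 CPM against 90.0 to 105. Their choice by likeness to Zak, which itself separated the models, favoured this. Of all genes tested, 78.8% did not overlap between the models without M2-Exo and 77% with it. For Mapk14 the 3 most alike genes were Raly (r = 0.866, rho = 0.769), Bad (r = 0.852, rho = 0.846) and Ppt2 (r = 0.821, rho = 0.811). Raly, which encodes an RNA-binding protein, was at 264 to 306 CPM in LPS replicate 1, LPS + M2-Exo replicates 1 and 2, Hyp replicates 2 and 3 and Hyp + M2-Exo replicate 3, and at 175 to 184 in the other 6 libraries. These were the libraries in which Mapk14 was high, with LPS replicate 1 as the exception. Bad and Ppt2 ranged less. Bad was at 21.4 to 25.0 CPM in LPS, 26.5 to 29.3 in LPS + M2-Exo, 24.2 to 28.3 in Hyp and 19.5 to 28.1 in Hyp + M2-Exo. Ppt2 was at 23.9 to 25.0 CPM in LPS, 27.5 to 28.7 in LPS + M2-Exo, 23.9 to 26.8 in Hyp and 23.7 to 28.9 in Hyp + M2-Exo. Both were higher in LPS + M2-Exo than in LPS without overlap, which Mapk14 was not. Of all genes tested, 17.2% did not overlap in that comparison. Bad and Ppt2 were picked by likeness to Mapk14 in these same libraries, so nothing about M2-Exo is read from them.

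**Figure D5:**
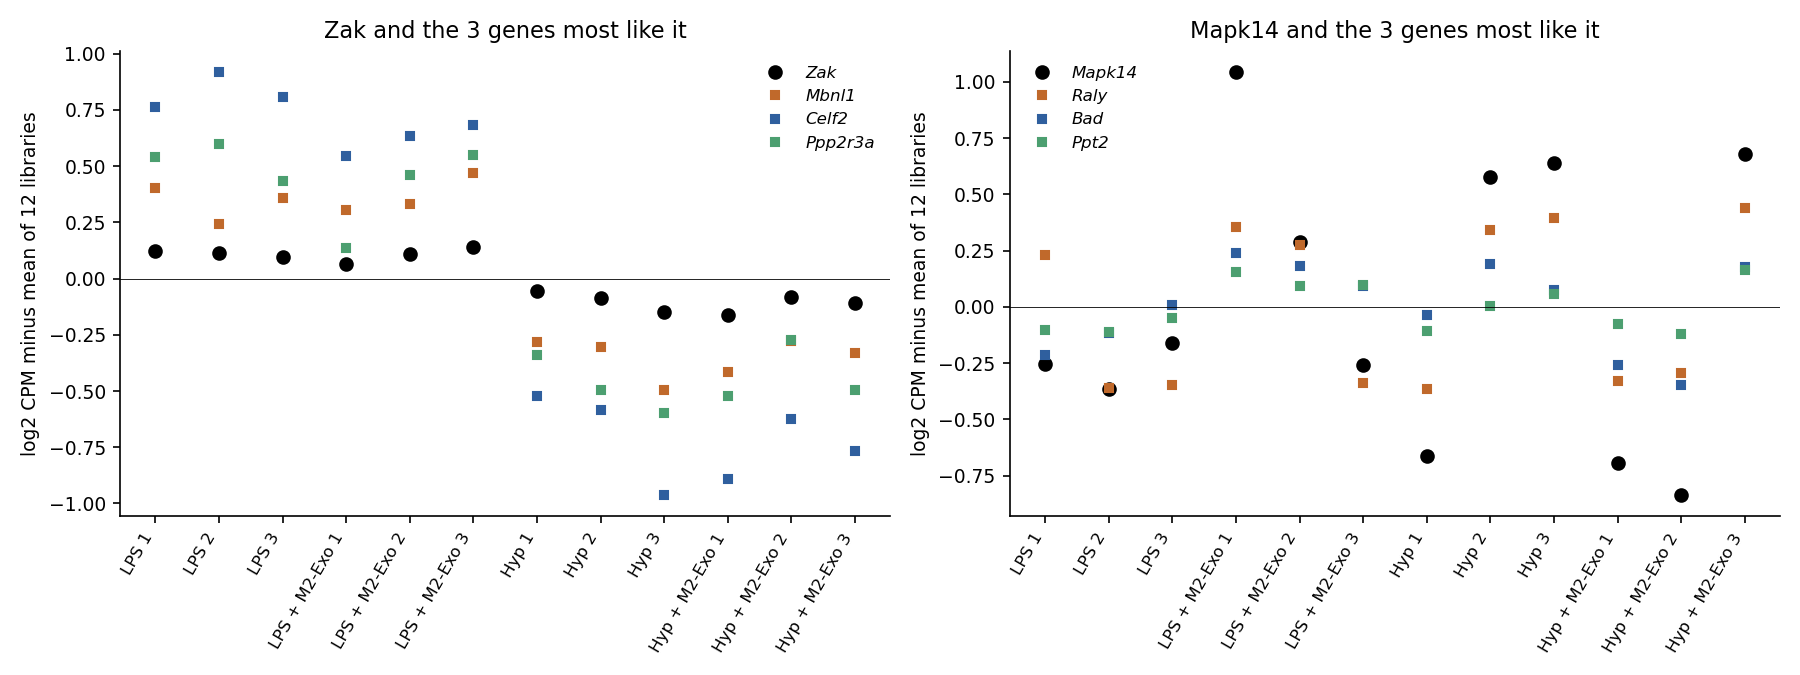
Log2 CPM of Zak (left) and Mapk14 (right) and of the 3 genes most like each, in each library, after subtraction of the mean of the 12 libraries. The genes most like Zak, chosen over these libraries, separate the LPS groups from the Hyp groups as Zak itself does. Raly varies between libraries of the same group as Mapk14 does, whereas Bad and Ppt2 range less.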

How the data were processed

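RNA was sequenced in 12 libraries of MLE-12 cells, 3 per group. For 34745 genes the authors deposited raw read counts and FPKM of each library. Per the labels and the submitters' processing notes, poly(A) RNA was selected and HISAT2 2.0.4, StringTie 1.3.0, edgeR and GRCm38 were used. The counting program and annotation are not given in the sources used here, and the methods name Trizol for RNA where the labels name a column kit. The deposited FPKM followed from the counts to within 0.055%. Of the table's genes 34267 (98.6%) were found in GENCODE M21 by identifier. All sample columns were used.

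The count tests were run in edgeR 4.0.16 (R 4.3.3) with filterByExpr, TMM scaling and the quasi-likelihood F test on the 6 libraries of each comparison, with Benjamini-Hochberg adjustment over all genes tested and a threshold of 0.05. The interaction was fitted on all 12 libraries. CPM used TMM factors of the 12 libraries together. Intervals are 95% intervals of the fitted log2 difference. The fit was tested on simulated data. Alternatives were RLE scaling, library size alone, no filter, at least 10 counts in every library, DESeq2 1.42.0, all 12 libraries in 1 fit, a replicate block, and limma 3.58.1 on log2(FPKM + 1) and log2(FPKM + 0.1) at a mean FPKM of at least 1 or with no filter, and each library left out.

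Replicates of a group differed beyond sampling noise (chi-square per degree of freedom 7.01 to 11.6), so no library was a copy. All members were named, and from each pathway list up to 3 called genes higher and 3 lower per comparison were eligible, besides 17 genes taken whatever their values. Genes most like Zak and Mapk14 had a mean of at least 10 CPM and were the 3 with the highest r. The members and lists were chosen with earlier results of these data known. RefSeq promoter windows were read from a table of GRCm38.p6 and all 10 members matched.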

Additional observations from a re-analysis of the deposited data

How the results depend on the processing

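The number of cascade members called, 0 with M2-Exo in either model and in the interaction and 8 in each comparison of LPS with Hyp, was the same under every alternative and, in the comparisons of M2-Exo, with any 1 library left out. It was 9 of 9 between LPS and Hyp without Hyp replicate 1, and 9 of 9 with M2-Exo in both groups without Hyp + M2-Exo replicate 3, when Mapk14 was called as well. Of the 12 transcripts under MK2 control 9 passed a minimum of 10 counts in every library, and all 9 were called. The number of all genes called with M2-Exo in LPS, 25, was 130 with DESeq2, 12 with all 12 libraries in 1 fit, 12 with limma on log2(FPKM + 0.1), and 21 to 39 with a library left out. In Hyp, 14 became 37 with DESeq2, 2 with all 12 libraries and 4 with limma on log2(FPKM + 1) without a filter. For the interaction, 5 became 13 without a filter on low counts, 70 with DESeq2, 11 with limma on log2(FPKM + 1) without a filter, and 4 to 34 with a library left out, the highest without Hyp + M2-Exo replicate 1. The cause was not tested.

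The replicate numbers did not pair the libraries: the deviations of same-numbered libraries correlated at -0.0212 to 0.0471. With the replicate block 6 genes were called with M2-Exo in LPS, 8 in Hyp and 3 in the interaction, and the block changed no call of a cascade member.

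Small M2-Exo differences of members changed sign, and others kept their sign but moved by over 1.5 times, such as Mapk11 in Hyp (-0.23 to -0.069 with a library left out). Mapk12 in Hyp was 0.000805 with all 12 libraries in 1 fit. With a library left out, in LPS Mapk12 lay between -0.10 and 0.053 and Zak between -0.025 and 0.012. In Hyp Mapk12 lay between -0.062 and 0.027, Map3k5 between -0.078 and 0.032, Mapkapk3 between -0.095 and 0.013, Map2k3 between -0.050 and 0.014 and Mapkapk2 between -0.072 and 0.018. For the interaction the ranges were -0.052 to 0.10 for Mapk12, -0.011 to 0.24 for Map2k3, -0.042 to 0.054 for Mapkapk2 and -0.041 to 0.0064 for Zak.

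Scaling by library size alone moved the median of all genes in LPS against Hyp from -0.0091 to -0.099, and the split from 5216 higher and 5249 lower to 4639 and 5927. On log2(FPKM + 1) the differences of Map2k6 and other low genes between the models shrank by more than 1.5 times. That of Zak, at 10.3 to 12.0 FPKM, went from 0.21 to 0.11 without M2-Exo. The fits on FPKM differ from the main fit in the pseudocount and in having no TMM scaling. The part of each in the shrinkage was not tested. With M2-Exo in both groups, the calls of Mapk8ip3 and Ptprr, both among the pathway genes counted, were each lost in 5 of 6 fits that left out a library and that of Mapkapk5 in 2 of 6. Without M2-Exo, the call of Mapk8ip3 was lost in 3 of 6. Ptprr also lost its call under 4 of 8 alternatives. Low counts limited Mapk13, and the spread between libraries limited Mapk14.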
